A study of Mus musculus with 6 samples.

Results

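The genes of fatty acid uptake, mitochondrial β-oxidation and ketone use were examined in skeletal muscle of FLExDUX4 mice and wild-type (WT) littermates. The list holds 42 genes, chosen by gene name for their place in the pathway, with earlier results of these data known. All 42 had a row among the 52550 mouse genes of the deposited table. Each group held 3 male mice. The sample labels give quadriceps muscle and an age of 13 weeks, whereas the methods of the paper describe triceps muscle and younger animals. In FLExDUX4 mice the human gene DUX4 sits backwards in a construct meant to be flipped by Cre recombinase, so that only traces of it are made without Cre. Neither the labels nor the methods name a Cre driver for the animals sequenced. The level of the transgene was not analysed here. Libraries were made with QuantSeq. Reads of this assay come from the 3′ ends of mRNAs, about 1 for each transcript. The CPM values below, a gene's count scaled to a library of 1000000, are therefore not divided by length. Levels of different genes can be compared only roughly, because some 3′ ends of the list are shared with other genes.

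Fatty acids reach muscle as triglyceride in lipoproteins or bound to albumin. Lipoprotein lipase releases them at the capillary wall, transporters and binding proteins bring them into the fiber, acyl-CoA synthetases activate them, and the carnitine shuttle carries them into mitochondria. There the β-oxidation spiral shortens the chain and passes electrons to the electron transfer flavoprotein. Pyruvate dehydrogenase kinases set how much glucose carbon competes with this fuel, by switching off the pyruvate dehydrogenase complex. Muscle also burns ketone bodies made in the liver, and many of these genes are known to be raised by fasting and by PPAR nuclear receptors.

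The values compared were the counts of each gene summed by the authors over the 3 mice of a genotype. These totals came to 13110125 counts on genes in FLExDUX4 and 18367364 in WT. They were scaled by TMM, a trimmed mean over 13396 genes with enough counts, and each gene is given as the log2 ratio of FLExDUX4 to WT with a 95% Clopper-Pearson interval. With 1 total per group there is no replicate check and no test between genotypes, a single mouse can decide a ratio, and the intervals cover counting error only. A gene was called when the ratio was at least 0.3219 in size and its interval left out 0. Spike-in RNAs took 1.68% of gene counts in FLExDUX4 and 1.42% in WT, and scaling by them moved every ratio by -0.276, so the value under spike-ins is given where it differs in sign. In bulk RNA, fewer cells of a type and less RNA per cell cannot be told apart.

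Pdk4, a pyruvate dehydrogenase kinase, differed most clearly among the well-counted genes of the list, at 1.81-fold the WT level. Cpt1a, Ucp2, Ucp3, Bdh1 and Slc27a1 were also called higher in FLExDUX4, all 5 with far fewer counts, and Angptl4 and Acot1 were called lower. The enzymes of the β-oxidation spiral lay close to the WT level under TMM. Of 41 genes compared, 6 were called higher and 2 lower, which is 19.5% of them, against 30.1% of all 13396 genes compared (15.0% higher and 15.1% lower). With spike-ins the balance turned to 2 higher (Pdk4 and Cpt1a) and 9 lower, while 43.0% of all genes were called. Slc27a1, Ucp2, Ucp3 and Bdh1 then lost their calls, and Acsl4, Acads, Hadh, Decr1, Acot13, Pdk2 and Oxct1 joined Angptl4 and Acot1 among the genes called lower. Ratios above 0 were found for 29 of the 41 under TMM, against 49.9% of all genes, and for 10 of the 41 under spike-in scaling, against 25.2% of all genes. The median ratio of the list was 0.11 under TMM and -0.17 under spike-in scaling. It lay 0.109 above the median of all genes, a gap that no scaling can change because each moves every gene alike.

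**Figure D1:**
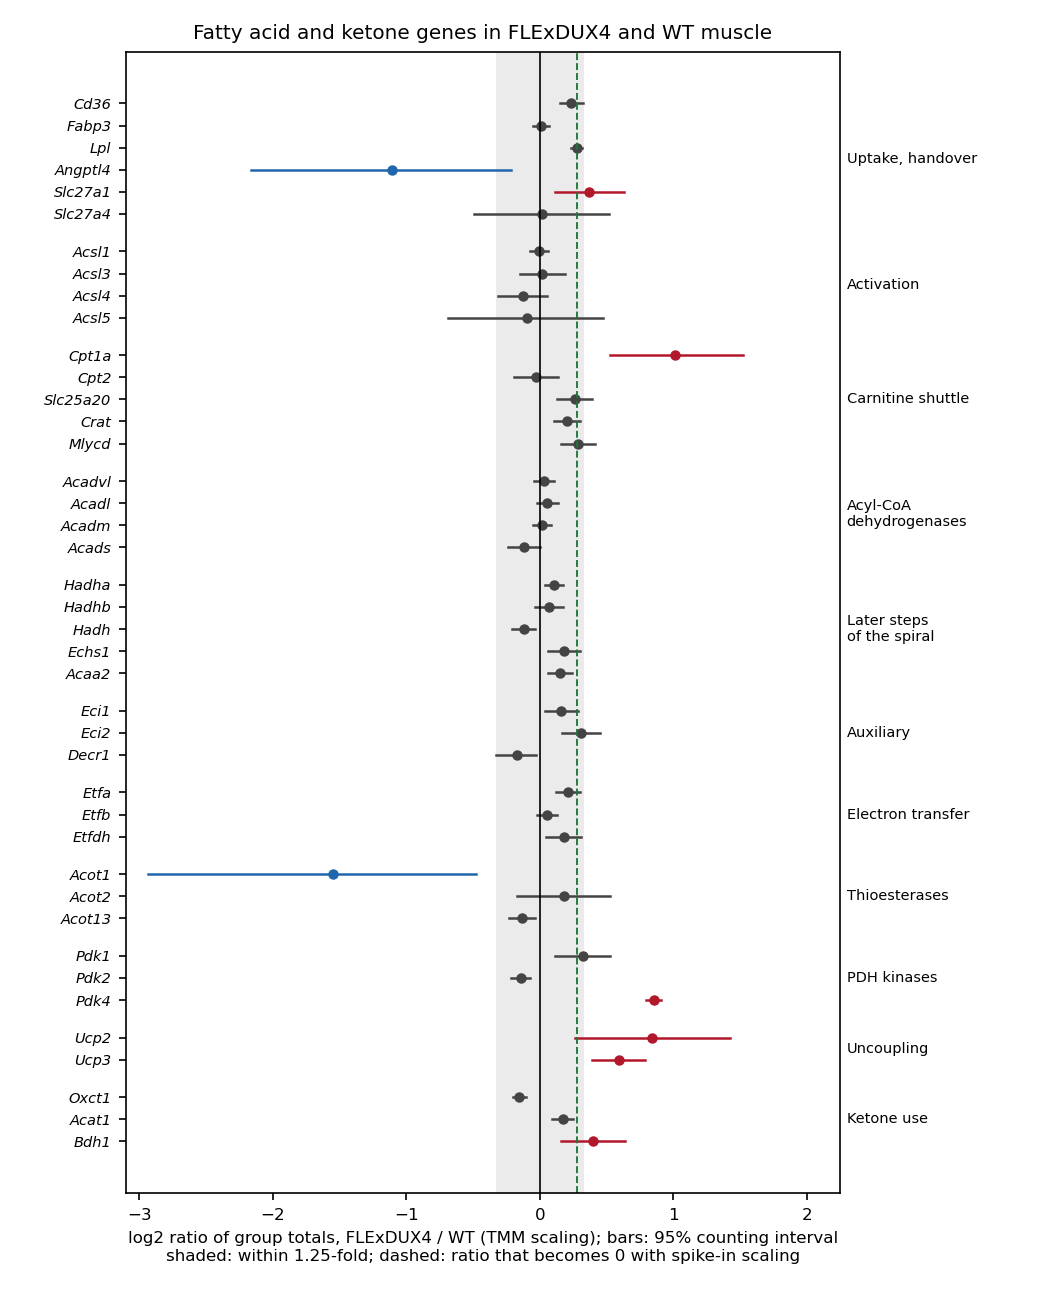
Log2 ratio of FLExDUX4 to WT group totals for the 41 genes compared, ordered by role, with TMM scaling. Red and blue mark genes called higher and lower, the shaded band the range within the fold threshold, horizontal bars 95% counting intervals, and the dashed green line marks where 0 lies with spike-in scaling. The points of 10 genes lie to the right of both lines, but only Pdk4, Cpt1a and Ucp3 have their whole interval there. Most enzymes of the oxidation spiral lie between 0 and the dashed line, so that their direction turns with the scaling.

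Calls were more frequent among genes with few counts. Of the 30 genes with at least 1000 counts over both totals, only Pdk4 was called, which is 3.33%, against 9.31% of the 2727 genes at that depth (4.84% higher). Of the 11 compared genes under 1000 counts, 7 were called (63.6%), against 35.4% of the 10669 genes there (17.6% higher). The deeper genes had a median ratio of 0.06 under TMM, which turned to -0.21 with spike-ins. The shallower ones had a median of 0.32 under TMM and 0.05 with spike-ins. The minimum of 1000 counts was chosen after the values were seen.

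**Figure D2:**
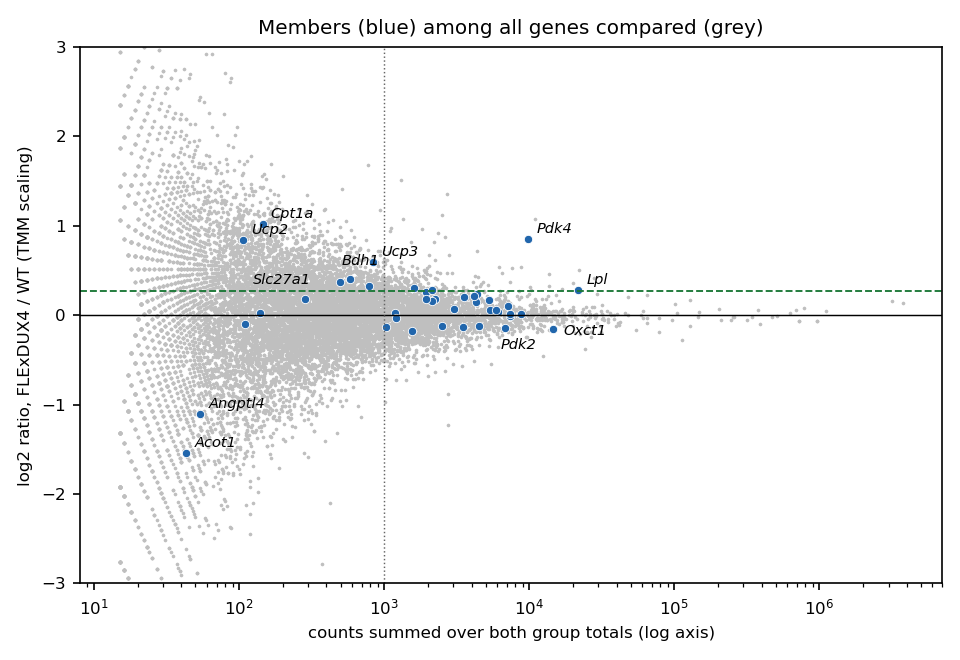
Log2 ratio of FLExDUX4 to WT against counts summed over both totals (log axis) for the genes compared, with the genes of the list in blue and all others in grey. The dotted line marks 1000 counts, the dashed line 0 with spike-in scaling, and 194 genes with ratios beyond ±3 fall outside the plot. Pdk4 stands apart at 9799 counts, while the other called genes of the list lie among the wide spread of genes under 1000 counts.

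The pyruvate dehydrogenase kinases differed from each other in their ratios. Pdk4, the isoform known for its rise in muscle during fasting, had 5470 counts in FLExDUX4 and 4329 in WT, so its raw total was higher although the FLExDUX4 libraries were smaller. Its level was 422 CPM against 233 CPM, a log2 ratio of 0.85 (0.80 to 0.91) that remained at 0.58 with spike-ins. Pdk2, the isoform expressed in most tissues, had 2648 counts in FLExDUX4 and 4182 in WT, a ratio of -0.14 (-0.21 to -0.07), and was called lower with spike-ins at -0.42. Pdk1, known as a target of the hypoxia response, had 365 and 418 counts, a ratio of 0.32 (0.11 to 0.53) that fell just short of the call. It was called with RLE scaling or a pseudocount of 5, and its ratio was 0.05 with spike-ins. A ratio between genes of the same libraries needs no scaling. There were 2.07 counts of Pdk4 for each count of Pdk2 in FLExDUX4 and 1.04 in WT, a difference of 0.997 (0.91 to 1.09) on the log2 scale. Summed over the 3 kinases the level was 654 CPM in FLExDUX4 and 481 CPM in WT.

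The uncoupling proteins are carriers of the inner mitochondrial membrane, and Ucp3 is the form typical of skeletal muscle. Ucp3 had 431 counts in FLExDUX4 and 409 in WT, or 33.2 and 22.0 CPM, a ratio of 0.59 (0.39 to 0.79) that was 0.32 with spike-ins. Ucp2, found in many tissues and in immune cells, had 59 and 47 counts, a ratio of 0.84 (0.27 to 1.43) and of 0.57 with spike-ins, where its interval held 0. These genes are neighbours on chromosome 7. Ucp3 spans chr7:100472990-100486432 in GRCm38, and the deposited start of Ucp2 is at 100493337. Pdk4 lies on chr6:5483351-5496309.

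The carnitine shuttle imports long-chain acyl groups into mitochondria, and carnitine palmitoyltransferase 1 is its controlled step. Cpt1a, the isoform typical of liver, had 85 counts in FLExDUX4 and 60 in WT, a ratio of 1.02 (0.53 to 1.52) and of 0.74 with spike-ins. It was a low gene in both groups, at 6.55 and 3.23 CPM. Cpt1b, the muscle isoform, was listed with 6 counts in FLExDUX4 and 0 in WT, too few to compare. The table gives Cpt1b the same start as Chkb, a choline kinase gene (chromosome 15, 89416405), and Chkb had 221 and 337 counts with a ratio of -0.09 (-0.34 to 0.16). The level of the muscle isoform can therefore not be read from these counts. Slc25a20, the carnitine-acylcarnitine carrier, had 889 and 1060 counts, a ratio of 0.26 (0.13 to 0.39). Cpt2, which hands the acyl group back to CoA inside the mitochondrion, had 493 and 719 counts and a ratio of -0.03 (-0.20 to 0.14). Relative to Cpt2, Slc25a20 was higher in FLExDUX4 by 0.29 (0.08 to 0.50) on the log2 scale. Mlycd, which breaks down the CPT1 inhibitor malonyl-CoA, had 987 and 1157 counts, a ratio of 0.29 (0.16 to 0.41). Crat, which buffers acetyl-CoA as acetylcarnitine, had 1585 and 1967 counts, a ratio of 0.21 (0.11 to 0.30). None of these last 4 genes was called, and the ratios of Slc25a20 and Crat turned below 0 with spike-ins, at -0.01 and -0.07.

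The 250 bases before the RefSeq start of Pdk4, Ucp3 and Cpt1a are printed because these 3 genes alone on the list had intervals above 0 under spike-in scaling as well as TMM. Sequences are from RefSeq on GRCm38.p6, 5′ to 3′ on the strand of the gene: Pdk4 at chr6:5496279-5496528 on the minus strand, Ucp3 at chr7:100472741-100472990 on the plus strand and Cpt1a at chr19:3323051-3323300 on the plus strand. Capitals mark matches on either strand to AGGTCA, the core of nuclear receptor sites, to CCAAT, to TATAAA or to the forkhead core GTAAACA.
Pdk4: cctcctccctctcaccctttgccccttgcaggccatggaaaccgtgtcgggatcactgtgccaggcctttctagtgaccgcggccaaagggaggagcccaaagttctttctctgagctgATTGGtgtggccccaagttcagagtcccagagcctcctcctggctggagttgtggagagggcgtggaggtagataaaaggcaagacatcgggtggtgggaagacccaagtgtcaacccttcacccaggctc
Ucp3: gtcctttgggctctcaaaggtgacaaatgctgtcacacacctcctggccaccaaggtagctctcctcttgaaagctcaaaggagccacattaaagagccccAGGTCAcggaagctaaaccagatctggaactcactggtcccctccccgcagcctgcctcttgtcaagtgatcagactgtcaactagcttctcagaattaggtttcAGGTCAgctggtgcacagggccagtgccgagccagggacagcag
Cpt1a: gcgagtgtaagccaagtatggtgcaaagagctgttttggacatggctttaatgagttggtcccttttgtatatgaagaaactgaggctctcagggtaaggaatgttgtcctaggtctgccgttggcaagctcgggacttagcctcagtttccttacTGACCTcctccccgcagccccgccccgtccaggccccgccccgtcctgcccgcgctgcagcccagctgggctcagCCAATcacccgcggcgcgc
Ucp3 held AGGTCA with its first base at -149 and at -44 from the start. Cpt1a held it at -94 and CCAAT at -19, and Pdk4 held CCAAT at -131 and no AGGTCA. Of the other genes called higher, Slc27a1 held CCAAT at -188, and Ucp2 and Bdh1 held none of the motifs searched. Over the 34 genes of the list with a promoter in the table, AGGTCA was found in 6 (17.6%), against 14.0% of 32851 promoters, and CCAAT in 15 (44.1%), against 33.8%. GTAAACA, present in 3.17% of promoters, and TATAAA, present in 12.4%, were found in none of the 34, nor was the DR1 repeat of AGGTCA (0.0335% of promoters) or the glucocorticoid receptor element (0.387%). A match is a description of the letters and not a bound site.

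Uptake began with Lpl, the lipase that frees fatty acids from lipoproteins and the gene with the most counts on the list. It had 9952 counts in FLExDUX4 and 11750 in WT, or 767 and 633 CPM, a ratio of 0.28 (0.24 to 0.32) that was 0.00 with spike-ins. Cd36, the fatty acid translocase of fibers, capillaries and fat cells, had 1975 and 2400 counts, a ratio of 0.24 (0.15 to 0.32) that turned to -0.04 with spike-ins. Neither reached the threshold, and the ratio of Lpl to Cd36 counts was nearly equal in the groups, at 5.04 and 4.90. Slc27a1, the fatty acid transporter FATP1, had 236 and 261 counts, a ratio of 0.37 (0.11 to 0.63) and 0.10 with spike-ins. It lost its call with spike-ins. Fabp3, the fatty acid binding protein of muscle, lay at the WT level under TMM, with 3622 and 5152 counts and a ratio of 0.01 (-0.05 to 0.07), which became -0.27 with spike-ins and was also below 0 with gene totals, the upper quartile, no filter or a minimum of 10 counts in each total. Angptl4, a secreted inhibitor of lipoprotein lipase and a known PPAR target, had 13 counts in FLExDUX4 and 41 in WT. Its ratio was -1.10 (-2.17 to -0.21), the opposite direction to Pdk4. Slc27a4, the transporter FATP4, had 58 and 82 counts and a ratio of 0.02 (-0.49 to 0.52) that turned to -0.26 with spike-ins and was also below 0 with gene totals.

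Acyl-CoA synthetases trap fatty acids as CoA esters, and none of the 4 was called. Acsl1, the main form in muscle, had 3029 counts in FLExDUX4 and 4349 in WT, a ratio of -0.01 (-0.07 to 0.06). Acsl3, Acsl4 and Acsl5 had ratios of 0.02, -0.13 and -0.10 under TMM, each with an interval that held 0. With gene totals all 4 lay below 0, as they did with spike-ins, where Acsl3 had -0.26 and Acsl4, called lower, -0.40.

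The oxidation spiral, its auxiliary enzymes and the electron transfer flavoprotein with its oxidoreductase form a block of 15 genes with 596 to 3059 counts in FLExDUX4. None was called under TMM, against 9.31% of all genes with at least 1000 counts, as all 15 have, and their ratios ran from -0.17 to 0.31 with a median of 0.07, above 0 for 12 genes under TMM and for 1 under spike-in scaling. With spike-ins, Acads (-0.39), Hadh (-0.40) and Decr1 (-0.45) were called lower, while 43.0% of all genes were called in either direction. Summed, the 15 genes reached 1950 CPM in FLExDUX4 and 1862 CPM in WT, a ratio of 0.07 that became -0.21 with spike-ins. The acyl-CoA dehydrogenases, which open each turn of the spiral, were, of the groups in this block, the nearest to 0 under TMM and the furthest below it under spike-in scaling, with summed ratios of 0.02 and -0.26. Acadm, for medium chains, had 3051 and 4318 counts and a ratio of 0.02 (-0.05 to 0.08). Acadvl and Acadl, for longer chains, had ratios of 0.03 and 0.06, and Acads, for short chains, had -0.12. The ratios of Acadm, Acadvl and Acadl turned to -0.26, -0.24 and -0.22 with spike-ins, and that of Acadm also with gene totals or the upper quartile.

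Hadha and Hadhb encode the subunits of the trifunctional protein and stayed in step. Hadha had 3059 counts in FLExDUX4 and 4060 in WT, a ratio of 0.11 (0.04 to 0.18), and Hadhb had 1283 and 1752, a ratio of 0.07 (-0.04 to 0.17). There were 2.38 counts of Hadha for each of Hadhb in FLExDUX4 and 2.32 in WT, a log2 difference of 0.04 (-0.08 to 0.17). Echs1, the short-chain hydratase, had a ratio of 0.18 (0.06 to 0.31) and Acaa2, a thiolase, 0.15 (0.07 to 0.24), while Hadh, the short-chain hydroxyacyl dehydrogenase, had -0.12 (-0.21 to -0.03). With spike-ins all 5 lay below 0, with Hadha at -0.17, Hadhb at -0.21, Echs1 at -0.09 and Acaa2 at -0.12.

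Unsaturated fatty acids need extra enzymes to move or reduce their double bonds, and these did not share a direction. Eci2 had 748 counts in FLExDUX4 and 865 in WT, a ratio of 0.31 (0.16 to 0.45), the highest of the 15 genes and 0.03 with spike-ins. Eci1 had a ratio of 0.16 (0.04 to 0.29), which turned to -0.11 with spike-ins. Decr1, the dienoyl-CoA reductase, had 596 and 962 counts and a ratio of -0.17 (-0.32 to -0.03), the lowest of the 15. The electron carriers Etfa, Etfb and Etfdh had ratios of 0.21, 0.06 and 0.18 under TMM, which turned to -0.07, -0.22 and -0.10 with spike-ins. Etfa and Etfb encode the subunits of a heterodimer, and their count ratio differed between the groups by 0.15 (0.04 to 0.27) on the log2 scale.

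Acyl-CoA thioesterases release free fatty acid from CoA. Acot1, the cytosolic form, had 8 counts in FLExDUX4 and 35 in WT, a ratio of -1.55 (-2.93 to -0.48), and it passed the filter on low counts only through WT. Acot2, its mitochondrial paralog on chromosome 12, had 125 and 158 counts and a ratio of 0.18 (-0.17 to 0.53) that turned to -0.10 with spike-ins. Acot13, a small mitochondrial thioesterase, had 1368 and 2145 counts, a ratio of -0.13 (-0.23 to -0.03), and was called lower with spike-ins at -0.41.

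The enzymes of ketone use did not share a direction, and with spike-ins Bdh1 alone lay above 0. Bdh1, which oxidises β-hydroxybutyrate, had 280 counts in FLExDUX4 and 303 in WT, a ratio of 0.40 (0.16 to 0.64) and 0.13 with spike-ins. Oxct1, the CoA transferase that commits ketone bodies to oxidation, had 5671 and 9019 counts, or 437 and 486 CPM, a ratio of -0.15 (-0.20 to -0.10), and was called lower with spike-ins at -0.43. Acat1, the thiolase of the last step, had 2332 and 2963 counts and a ratio of 0.17 (0.09 to 0.25) that became -0.11 with spike-ins. There were 20.3 counts of Oxct1 for each of Bdh1 in FLExDUX4 and 29.8 in WT, a log2 difference of -0.56 (-0.79 to -0.32). These pairs of genes were chosen after their values were seen, and the intervals of pair ratios use a normal approximation.

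**Figure D3:**
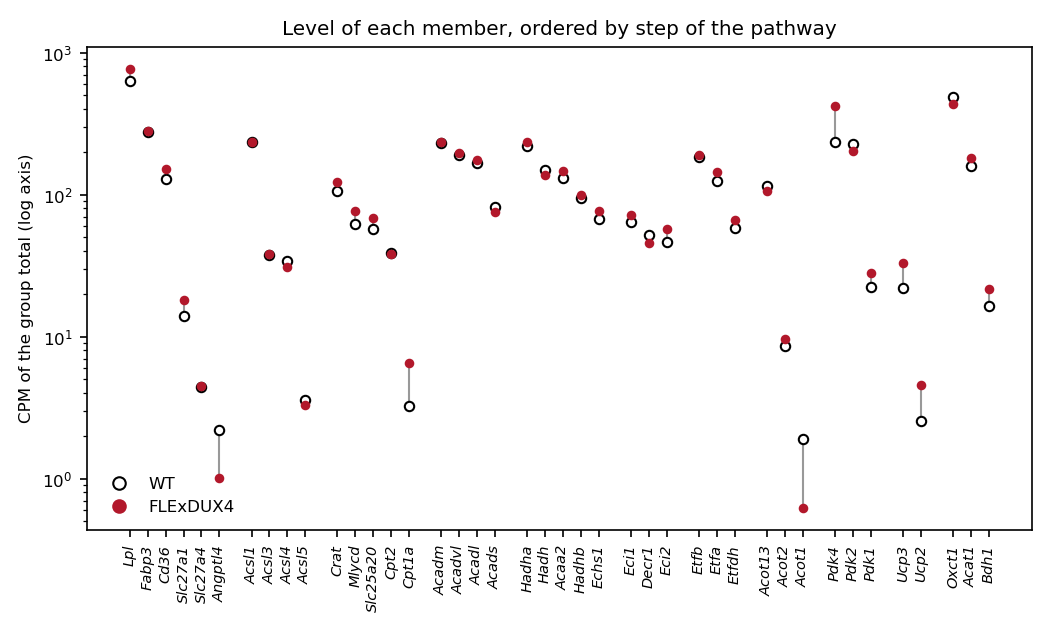
Level in CPM (log axis) of the 41 genes compared in the group totals of FLExDUX4 (filled red) and WT (open), scaled by TMM and ordered by role. Lpl, at 767 and 633 CPM, is the highest, Oxct1 and Pdk4 follow in FLExDUX4 at 437 and 422 CPM, and Cpt1a and Ucp2 stay under 10 CPM in both groups.

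Another 57 genes of the same pathways were taken for comparison, and 52 had enough counts. Of these, 8 were called higher and 7 lower (28.8%), close to the 30.1% over all genes, with a median ratio of -0.01 under TMM and -0.28 with spike-ins. The subunits of the pyruvate dehydrogenase complex, on which the kinases act, lay near the WT level under TMM. Pdha1 had 3151 and 4469 counts and a ratio of 0.01 (-0.05 to 0.08), which was -0.26 with spike-ins. In the list of the complex and its phosphatases, 4 of 10 genes were called lower with spike-ins and 0 higher. That stands against 43.0% of all genes called in either direction. The phosphatases that reverse the kinases differed in sign. Pdp1 had 381 and 717 counts with a ratio of -0.39 (-0.58 to -0.21), and Pdp2 had 129 and 129 counts with 0.52 (0.15 to 0.88). Gpihbp1, the capillary anchor of lipoprotein lipase, had a ratio of 0.38, and the peroxisomal genes Crot and Scp2 had 0.44 and 0.32. Of the 15 peroxisomal genes compared, however, 2 were called higher and 3 lower (33.3%), with Abcd2 among the lower. Acot9, a mitochondrial thioesterase, had 0.75 and Nudt19, a CoA hydrolase, 0.34. Acsl6, Them4 and Abcd2 had ratios of -0.44, -0.56 and -0.38. These ratios, Pdha1 apart, kept their sign with spike-ins, but Gpihbp1 (0.11), Crot (0.16), Scp2 (0.05), Nudt19 (0.06) and Pdp2 (0.24) then fell short of the threshold. Of the 52 genes, 26 lay above 0 under TMM, against 49.9% of all genes, and 12 with spike-ins, against 25.2%. With spike-ins 22 of the 52 were called, against 43.0% of all genes.

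Markers of other cells also differed between the totals. Their calls under TMM stand against 15.0% of all genes called higher and 15.1% lower, or 17.6% higher among genes under 1000 counts. Their calls with spike-ins stand against 43.0% of all genes called in either direction. The markers of skeletal muscle fibers were level under TMM, with a summed ratio of 0.00 over 8 genes (-0.28 with spike-ins) and 0 called (2 lower with spike-ins), and the 4 heart muscle markers were at 3.24 CPM or less, with 0 counts of Myl7 in both totals, 0 and 1 of Nppa, 13 and 19 of Myh6 and 42 and 53 of Tnnt2. Of 8 adipocyte markers, 6 were called higher in FLExDUX4. The summed level of the 8 was 202 CPM against 126 CPM, a ratio of 0.69 (0.60 to 0.77). It was 0.41 with spike-ins, where 3 of the 8 were called higher and 1 lower. Cfd alone gave 1468 of the 2620 summed counts in FLExDUX4 and 1144 of the 2330 in WT. Lep, with 12 and 31 counts, had the opposite direction at -0.82 under TMM, with an interval that held 0. The brown fat genes Ucp1 and Elovl3 had 0 counts in both totals, which allows up to 0.231 CPM in FLExDUX4 and 0.162 CPM in WT. Of the other brown fat markers, Cidea had 3 counts in FLExDUX4, which is at the floor, and 15 in WT. Cox7a1, which muscle also expresses, had 6073 and 8686. Hemoglobin and other red blood cell genes had a summed ratio of 0.33 (0.30 to 0.36), or 0.05 with spike-ins, and 3 of 5 were called higher under TMM and 0 with spike-ins. Endothelial markers, which bear on Lpl, Cd36 and Gpihbp1, had a summed ratio of -0.12 (-0.19 to -0.05), with 1 of 8 called higher and 3 lower under either scaling. Fibroblast markers had a summed ratio of 0.19, which turned to -0.08 with spike-ins, with 3 of 6 called higher under TMM and 0 with spike-ins. Macrophage and Schwann cell markers had summed ratios of 0.01 and 0.03, which turned to -0.27 and -0.24 with spike-ins. Of 8 macrophage markers, 1 was called higher and 1 lower under TMM, and 1 higher and 4 lower with spike-ins. Of 4 Schwann cell markers, 0 were called under TMM, while 2 were called lower with spike-ins. Fat cells also express Lpl, Cd36 and Pdk4, and the part of fat, blood or other cells in the ratios of the list was not tested.

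**Figure D4:**
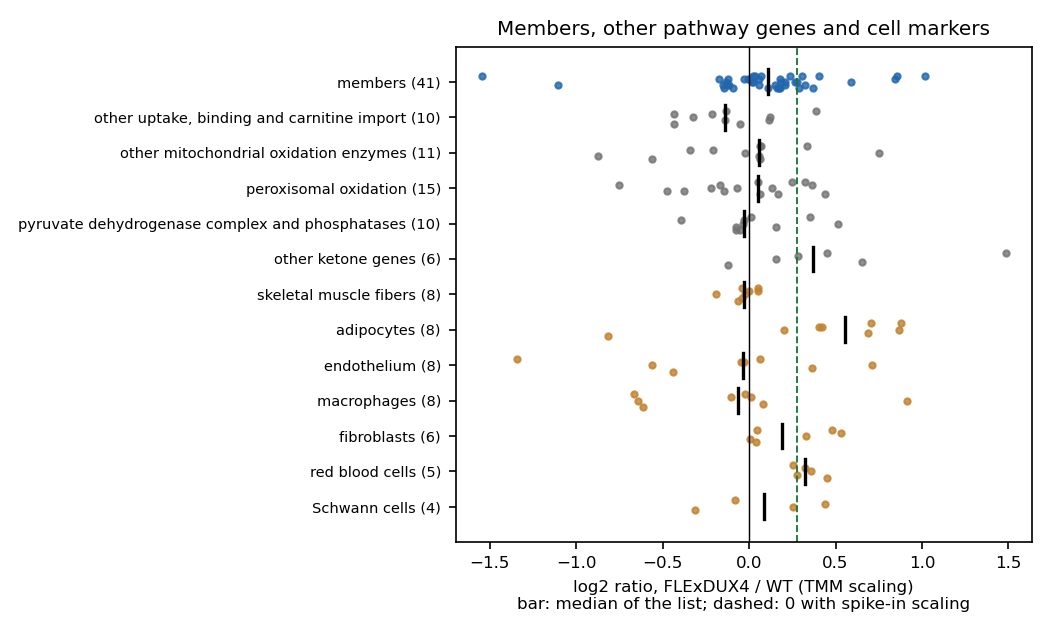
Log2 ratios of FLExDUX4 to WT (TMM scaling) for the genes of the list, other genes of the pathway and cell type markers, with the number of genes compared in parentheses. Each point is a gene, black bars are medians and the dashed line is 0 with spike-in scaling. Adipocyte markers have the highest median, to the right of the dashed line, whereas the bar of the list lies between 0 and that line, so that its side turns with the scaling.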

How the data were processed

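RNA from muscle of 3 FLExDUX4 and 3 WT mice was sequenced with QuantSeq. The authors trimmed reads with Cutadapt 1.16 and aligned them with STAR 2.5.3a to GRCm38 joined to ERCC and SIRV spike-in sequences, and the submitters' processing notes name featureCounts 1.6.2. The deposited counts are whole-number totals per genotype, summed by the authors without normalization, over 52649 features, of which 99 are spike-ins. The authors' comparison columns (mean, fold change, error, statistic and p-values from DESeq2) were not used, nor were 6 columns of per-sample values whose names match no label.

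Depth was 13110125 and 18367364 gene counts, without the 220016 and 259913 spike-in counts. TMM factors came from edgeR 4.0.16, run in R 4.3.3, on the 13396 genes that passed filterByExpr with a minimum count of 10. Log2 ratios used a pseudocount of 0.5, with 95% Clopper-Pearson intervals (scipy 1.17.1). Totals of at most 3 counts were treated as at the floor. The scripts were tested on simulated data. The genes and lists were chosen with earlier results of these data known. All genes of the list are named, as are up to 12 other pathway genes past the call with at least 200 counts, and cell type lists by their sums. Pdha1 was added for its role after its value was seen. Gene ends are from GENCODE vM21 where the deposited start matched, and promoters from RefSeq (GRCm38.p6). Alternatives were other scalings, filters, pseudocounts and fold thresholds.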

Additional observations from a re-analysis of the deposited data

How the results depend on the processing

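The 41 single ratios stayed within their counting intervals under RLE, upper-quartile or gene-total scaling, no filter and a pseudocount of 5, as did the 40 left with at least 10 counts in each total. Ratios next to 0 changed sign for 4 genes with gene totals (Acadm, Acsl3, Fabp3 and Slc27a4), for Acadm and Fabp3 with the upper quartile, and for Fabp3 with no filter or at least 10 counts. Spike-in totals moved 34 of the 41 out of their interval, and 19 turned from above to below 0. Under spike-in scaling the genes above 0 went from 29 to 10, the median from 0.108 to -0.168 (reversed), the genes called higher from 6 to 2 (Pdk4 and Cpt1a) and those called lower from 2 to 9, against 43.0% of all genes called in either direction. At a fold threshold of 1.1 there were 24 calls among the 41, 19 higher and 5 lower, against 39.0% of all genes. With at least 1000 counts over both totals, a minimum added after seeing the data, 1 gene of 30 was called, higher, and 0 lower, against 9.31% of all genes, and of the other pathway genes 3 of 20 were called in place of 15 of 52. A minimum of 10 counts in each total left 1 gene called lower, Angptl4, since Acot1 was removed (27.1% of all genes called), and a fold threshold of 1.5 left 6 of the 41 called, without Slc27a1 and Bdh1, and 5 other pathway genes, against 20.1% of all genes. Pdk1 was called higher as well under RLE or with a pseudocount of 5, which made 9 calls, and with no filter Cpt1b was called higher on its 6 counts, which made 9 of 42 (25.7% of all genes). No paired analysis was possible because the names of the 6 per-sample columns match no sample label, so that these columns were not used. For that reason edgeR's quasi-likelihood test, DESeq2, leaving out each replicate and the replicate block were not run. Genes with few counts, such as Acot1, Angptl4, Ucp2 and Cpt1a, have wide counting intervals, and the spread between mice is not in any of them.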

Other observations

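Counting at the 3′ end bears on a few further genes of the list. In GENCODE vM21, 52.7% of the distinct stretches of 50 bases in the last 400 bases of the Etfb transcripts were shared with the gene model Gm45233, which had 0 counts in both totals. For Hadhb, 28.8% were shared with Gm13910, which had 2 counts in FLExDUX4 and 0 in WT. For Eci2, 9.72% were shared with Eci3, an enoyl-CoA isomerase paralog with 4 and 0 counts. Of Cpt1b, 68.8% were shared with Gm44502.

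Slc16a1, the transporter MCT1 that admits ketone bodies and lactate, had 531 counts in FLExDUX4 and 828 in WT. Its log2 ratio was -0.12 (-0.28 to 0.03) under TMM, and it was called lower with spike-ins at -0.40. It was named after its value was seen.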
